A study of Mus musculus with 12 samples.

Results

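The homeobox genes outside the Hox clusters that were followed here are 51 transcription factor genes. They were listed by name, with earlier results of these data known. Their RNA was compared across 4 populations of adipose precursor cells. Of the 51 symbols, 45 had a row in the deposited table of 31099 genes. The other 6 (Alx1, Barx1, Barx2, Dlx2, Irx4 and Nkx2-5) were not analysed here. Of the 45 genes, 37 reached a mean of 1 CPM (read counts scaled by TMM to a common library size) in at least 1 population, 21 of them in all 4 populations and 16 in some. The remaining 8 (Dlx1, Irx1, Lhx2, Lhx9, Msx2, Nkx3-2, Pitx3 and Six2) stayed under that level everywhere. A filter on low counts left 38 of the 45 for testing, which are the 37 genes and Lhx9.

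Homeobox genes encode proteins that bind DNA through a homeodomain, and during development many of them mark where in the body a cell lies. Fibroblasts and fat precursors keep part of that regional pattern after birth, so that homeobox genes are among those that commonly differ between fat depots. The TALE class (Meis, Pbx, Tgif and Irx genes) works largely as partners or modulators of other transcription factors. The paired-like, NK-like and LIM genes pattern limb, face, heart and nervous system, and the zinc finger class joins homeodomains with zinc fingers, as in the repressors Zeb1 and Zeb2.

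The libraries came from wild-type CD-1 mouse pups of mixed sex at 3 days of age, with 3 libraries per population. The populations were preadipocytes and progenitors sorted from perivascular fat of the thoracic aorta, and ICAM1+ preadipocytes and DPP4+ progenitors sorted from inguinal white fat, a subcutaneous depot at the groin. Per the labels, libraries with the same number hold tissue of the same pools of mice, so the spread between libraries is a spread between pools. The surface markers of the perivascular gates were not given in the sources used here, so that depot and sort gate cannot be told apart in any comparison between depots. In bulk RNA, fewer cells that use a gene and less RNA per cell also cannot be told apart.

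The 12 libraries held 15614628 to 25674461 counts, and libraries of 1 population correlated at r of 0.9547 to 0.9858 over log2 CPM. All 7 stromal markers were above 1 CPM in each population. Their summed level was 26800 to 72100 CPM in perivascular preadipocytes, 103000 to 165000 CPM in perivascular progenitors, 139000 to 166000 CPM in ICAM1+ preadipocytes and 267000 to 317000 CPM in DPP4+ progenitors. The 8 adipocyte markers summed to 4120 to 11600 CPM in perivascular preadipocytes, 961 to 1120 CPM in perivascular progenitors, 160 to 243 CPM in ICAM1+ preadipocytes and 31.8 to 122 CPM in DPP4+ progenitors. Library 1 of both perivascular populations and library 2 of the DPP4+ progenitors stood apart in an earlier reading of these data. Counts that move without them are given beside the results. The correlations do not single out DPP4+ library 2, with r of 0.9768 to library 1 and 0.9687 to library 3, beside 0.9709 between these. Its 7 mast cell markers summed to 276 CPM, against 73.6 and 63.5 CPM in libraries 1 and 3.

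More of the homeobox genes were above 1 CPM in the inguinal populations. They numbered 25 in perivascular preadipocytes, 26 in perivascular progenitors, 30 in ICAM1+ preadipocytes and 33 in DPP4+ progenitors. That is 55.6%, 57.8%, 66.7% and 73.3% of the 45 in the same order, while the share of all genes above 1 CPM was 47.4%, 48.2%, 47.9% and 47.2%. Per length of exon, Meox2, a mesodermal and vascular regulator, had the highest mean level among the homeobox genes in perivascular preadipocytes (22.95 CPM per kb), perivascular progenitors (27.5 CPM per kb) and ICAM1+ preadipocytes (64.9 CPM per kb). In DPP4+ progenitors the highest was Prrx1, a factor of limb and craniofacial mesenchyme, at 22.5 CPM per kb. The levels summed over all 45 genes were lowest in perivascular preadipocytes, at 511.5 to 676.1 CPM in the 3 libraries, and reached 845.2 to 973.8 CPM in perivascular progenitors, 1176 to 1253 CPM in ICAM1+ preadipocytes and 1032 to 1084 CPM in DPP4+ progenitors.

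**Figure D1:**
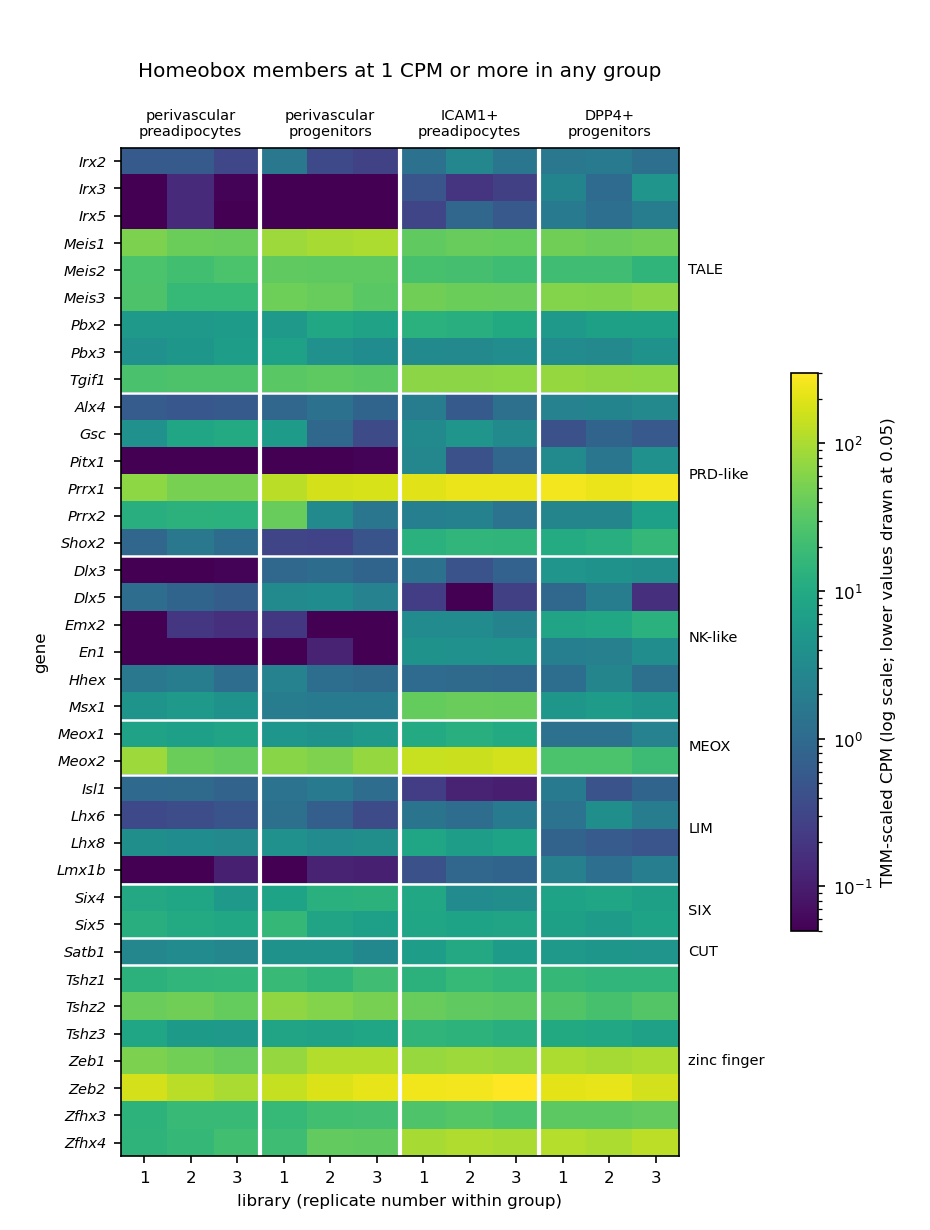
Level of the 37 homeobox genes averaging 1 CPM or more in some population (rows, by class) in each of the 12 libraries (columns, by population); the colour gives TMM-scaled CPM on a log scale. A block of genes including Irx3, Irx5, Emx2, En1 and Pitx1 is near 0 in all 6 perivascular libraries, while Meis1, Zeb1 and Zeb2 are well above 10 CPM in every library.

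The comparison of depots asked which of these genes separated perivascular from inguinal precursors. In progenitors, 22 of the 38 tested genes differed between perivascular and DPP4+ cells (57.9%), with 6 higher and 16 lower in the perivascular libraries (edgeR quasi-likelihood test, adjusted p under 0.05). The split rested on the scaling: with libraries scaled by their totals instead of TMM, 13 were higher and 11 lower. Over all 18855 genes tested, 24.9% were called, 13.0% higher and 11.8% lower. Since the list was chosen with earlier results known, its shares, here and below, cannot measure an excess over all genes. In preadipocytes, 25 of the 38 differed between perivascular and ICAM1+ cells (65.8%), with 3 higher and 22 lower, against 44.9% of all genes, 23.5% higher and 21.4% lower, and library totals gave 6 higher and 22 lower. The median log2 fold change of the 38 genes was -0.27 in progenitors, beside 0.05 for all genes tested, and -1.05 in preadipocytes, beside 0.04. All 3 perivascular libraries lay above the inguinal ones for 7 of the 38 genes and below them for 17 in progenitors, where 22.7% and 19.5% of all genes did so, and for 7 and 24 in preadipocytes, beside 29.5% and 27.8%.

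Genes lower in perivascular cells at both stages numbered 14: Dlx3, Emx2, En1, Irx5, Lhx6, Lmx1b, Meis3, Msx1, Pitx1, Prrx1, Shox2, Tgif1, Zfhx3 and Zfhx4. They are 87.5% of the 16 genes lower in progenitors and 63.6% of the 22 lower in preadipocytes. Over all genes, 1422 were lower at both stages, which is 63.8% and 35.2% of the genes lower at each stage. None of the 38 genes was called higher in perivascular cells at both stages by edgeR's test with TMM over all 12 libraries. In that test 6 were called higher in progenitors and 3 in preadipocytes, and Dlx5 was at an unadjusted p under 0.05 at each stage. Over all genes, 1207 were higher at both stages, which is 49.1% and 27.3% of the genes higher at each stage. Under the alternatives, Dlx5 was called higher at both stages by DESeq2, by limma-voom, without DPP4+ library 2 and without the 3 libraries that stood apart. Tshz2 was so called by limma-voom (log2 fold change 0.31, adjusted p = 0.0151 in preadipocytes), Prrx2 without perivascular progenitor library 3, and Dlx5, Meis1, Pbx3 and Tshz2 with library totals as the scale. Lhx8 and Meox2 were higher in perivascular than in DPP4+ progenitors and lower in perivascular than in ICAM1+ preadipocytes. Meox1, also called higher in perivascular progenitors, had its perivascular preadipocyte libraries below the ICAM1+ ones (log2 fold change -0.51, adjusted p = 0.0820). It was called lower there under some alternatives, such as DESeq2 (adjusted p = 0.0236), limma-voom (adjusted p = 0.000736) and the 2 groups alone (adjusted p = 0.0264).

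Several of these genes are also known from the nervous system, so the level of Schwann cell and neural markers is given beside them. The 6 markers summed to 18.0 to 28.7 CPM in perivascular preadipocytes, 30.7 to 32.9 CPM in perivascular progenitors, 191 to 216 CPM in ICAM1+ preadipocytes and 80.0 to 165 CPM in DPP4+ progenitors. Of the 6, 4, 4, 6 and 6 were at 1 CPM or more in the same order of populations, and none was at 0. Sox10, the defining marker, averaged 0.270 CPM in perivascular preadipocytes, 0.285 CPM in perivascular progenitors, 3.43 CPM in ICAM1+ preadipocytes and 1.27 CPM in DPP4+ progenitors. Their part in the results was not tested.

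Among the TALE genes, the Iroquois genes Irx3 and Irx5, neighbours on chromosome 8 that pattern limb, heart and nervous system, were without a single count in perivascular progenitors. Irx3 (chr8:91798525-91802067, mm10) had 0, 0 and 0 CPM in perivascular progenitors, against 2.57, 1.06 and 4.67 CPM in DPP4+ progenitors. With a floor of 3 counts over the group, Irx3 was at least 51.0-fold lower (adjusted p = 0.000400). In preadipocytes Irx3 had 0, 0.147 and 0.0536 CPM in perivascular libraries and 0.490, 0.194 and 0.257 CPM in ICAM1+ libraries. Those libraries did not overlap, but the difference in preadipocytes did not pass the test (adjusted p = 0.104).

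Irx5 (chr8:92357625-92376286) had 0, 0 and 0 CPM in perivascular progenitors, against 1.71, 1.21 and 1.97 CPM in DPP4+ progenitors, which is at least 30.1-fold lower (adjusted p = 0.000342). Irx5 had 0.0492, 0.147 and 0 CPM in perivascular preadipocytes, against 0.306, 0.890 and 0.565 CPM in ICAM1+ preadipocytes, a log2 fold change of -3.04 ± 0.757 (SE, adjusted p = 0.00803). Perivascular cells were thus below the inguinal cells at both stages for this gene. The preadipocyte value rests on 4 counts over the 3 perivascular libraries, which give a ratio of 9.41 for ICAM1+ over perivascular cells (3.39 to 36.2, 95% counting interval). Irx1, another Iroquois gene, was too low to test, with a mean of 0.0818 CPM in perivascular preadipocytes, 0 in perivascular progenitors, 0.231 CPM in ICAM1+ preadipocytes and 0.403 CPM in DPP4+ progenitors.

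Irx2 differed between depots in preadipocytes. It had 0.590, 0.587 and 0.322 CPM in perivascular preadipocytes, against 1.35, 2.83 and 1.54 CPM in ICAM1+ preadipocytes (log2 fold change -1.93 ± 0.590, adjusted p = 0.0185). The call did not hold without perivascular preadipocyte library 3 (adjusted p = 0.0565) or ICAM1+ library 2 (adjusted p = 0.0903). In progenitors Irx2 had 1.65, 0.345 and 0.271 CPM in perivascular libraries and 1.64, 1.82 and 1.23 CPM in DPP4+ libraries. Library 1 of the perivascular progenitors lay among the DPP4+ values, and without it Irx2 was lower in perivascular progenitors, with a log2 fold change of -2.33 (adjusted p = 0.00566, against 0.230 with it).

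Shox2, a paired-like gene of the proximal limb and the cardiac pacemaker region, was the clearest of the genes that were lower at both stages while detected in every library. Shox2 (chr3:66971727-66981771) had 0.310, 0.288 and 0.487 CPM in perivascular progenitors, against 10.6, 11.8 and 16.4 CPM in DPP4+ progenitors, a log2 fold change of -5.13 ± 0.323 (adjusted p = 3.96e-07). In preadipocytes it had 0.885, 1.61 and 1.07 CPM in perivascular libraries, against 12.9, 15.4 and 14.7 CPM in ICAM1+ libraries, a log2 fold change of -3.58 ± 0.280 (adjusted p = 2.25e-06). Every inguinal library was above every perivascular one. The antisense gene Rsrc1 overlaps 4.62% of the exon length of Shox2 and was at 23.8 to 48.2 CPM in the 4 populations. Whether counting used strand is not stated in the labels or file headers.

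Pitx1, the paired-like gene that sets hindlimb identity, followed the same order. Pitx1 (chr13:55825051-55836192) had 0, 0 and 0.0541 CPM in perivascular progenitors, against 3.21, 1.52 and 4.10 CPM in DPP4+ progenitors (adjusted p = 0.000969). The single perivascular count gives a ratio of 161 for DPP4+ over perivascular progenitors, with a 95% counting interval of 28.4 to 6430. Pitx1 had no count in perivascular preadipocytes, against 2.76, 0.426 and 0.874 CPM in ICAM1+ preadipocytes, which is at least 26.8-fold lower (adjusted p = 0.00144). The ICAM1+ libraries themselves spread widely. The antisense gene Gm47071 and the same-strand gene Gm28760 together overlap 10.3% of its exon length. Gm47071 averaged 0.863 to 1.27 CPM in the 4 populations.

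En1, an NK-like gene known from ventral limb ectoderm, hindbrain and the dermal fibroblasts of the back, had no count in perivascular preadipocytes. En1 (chr1:120602418-120607992) had 0, 0 and 0 CPM in perivascular preadipocytes, against 4.23, 4.07 and 4.42 CPM in ICAM1+ preadipocytes, at least 84.0-fold lower (adjusted p = 9.38e-06). It had 0.0516, 0.115 and 0 CPM in perivascular progenitors, against 2.14, 2.20 and 3.53 CPM in DPP4+ progenitors (adjusted p = 5.05e-05). The 3 perivascular progenitor counts give a ratio of 47.7 for DPP4+ over perivascular progenitors (15.9 to 235, 95% counting interval). The groups did not overlap at either stage.

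Emx2, an NK-like gene of the urogenital system, shoulder girdle and forebrain, was also near 0 in perivascular fat. Emx2 (chr19:59458372-59465357) had 0.207, 0 and 0 CPM in perivascular progenitors, against 7.93, 9.34 and 13.1 CPM in DPP4+ progenitors, a log2 fold change of -7.00 ± 0.701 (adjusted p = 1.39e-05). The 4 perivascular progenitor counts give a ratio of 138 for DPP4+ over perivascular progenitors (53.5 to 510, 95% counting interval). It had 0, 0.196 and 0.161 CPM in perivascular preadipocytes, against 3.31, 3.33 and 2.47 CPM in ICAM1+ preadipocytes, a log2 fold change of -4.61 ± 0.658 (adjusted p = 0.000180), and 7 perivascular counts give a ratio of 25.9 for ICAM1+ over perivascular cells (12.3 to 65.3). The antisense transcript Emx2os, which overlaps 8.79% of the Emx2 exons, averaged 0.299 CPM in perivascular preadipocytes, 0.472 CPM in perivascular progenitors, 11.9 CPM in ICAM1+ preadipocytes and 44.1 CPM in DPP4+ progenitors, so the gene and its antisense partner had the same order of depots.

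Lmx1b, the LIM gene that gives the limb its dorsal side, had 0, 0.115 and 0.108 CPM in perivascular progenitors, against 2.21, 1.21 and 2.05 CPM in DPP4+ progenitors, a log2 fold change of -4.52 ± 0.709 (adjusted p = 0.000494). From 4 perivascular counts the ratio was 25.3 for DPP4+ over perivascular progenitors (9.45 to 95.2, 95% counting interval). In preadipocytes, 3 perivascular counts gave a ratio of 14.8 for ICAM1+ over perivascular cells (4.76 to 74.4, 95% counting interval, adjusted p = 0.00222). Dlx3, an NK-like gene of epidermis, hair and bone, had 0.929, 1.09 and 0.812 CPM in perivascular progenitors and 4.71, 4.40 and 3.69 CPM in DPP4+ progenitors (log2 fold change -2.17 ± 0.382, adjusted p = 0.00113). In preadipocytes, 2 perivascular counts gave Dlx3 a ratio of 23.2 for ICAM1+ over perivascular cells (6.07 to 197, adjusted p = 0.000225). Both genes were lower in perivascular cells at both stages.

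Some of the genes lower in perivascular cells are also known from skin epithelium, so the level of epithelial markers is given beside them. The 8 keratinocyte and epithelial markers summed to 2.74 to 5.18 CPM in perivascular preadipocytes, 17.8 to 19.2 CPM in perivascular progenitors, 28.7 to 32.4 CPM in ICAM1+ preadipocytes and 323 to 425 CPM in DPP4+ progenitors. Krtdap, a gene of differentiating keratinocytes, made up 310 to 420.3 CPM of the DPP4+ sum. The other 7 markers summed to 2.04 to 4.55 CPM in perivascular preadipocytes, 5.06 to 9.36 CPM in perivascular progenitors, 16.5 to 22.7 CPM in ICAM1+ preadipocytes and 4.35 to 13.1 CPM in DPP4+ progenitors. Of the 8 markers, 1, 3, 7 and 4 were at 1 CPM or more in the same order of populations, and the defining marker Krt5 was at 0 in perivascular preadipocytes and in DPP4+ progenitors. The part of epithelial RNA in the values of Dlx3, Emx2, Irx3, Lmx1b and Pitx1 was not tested.

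**Figure D2:**
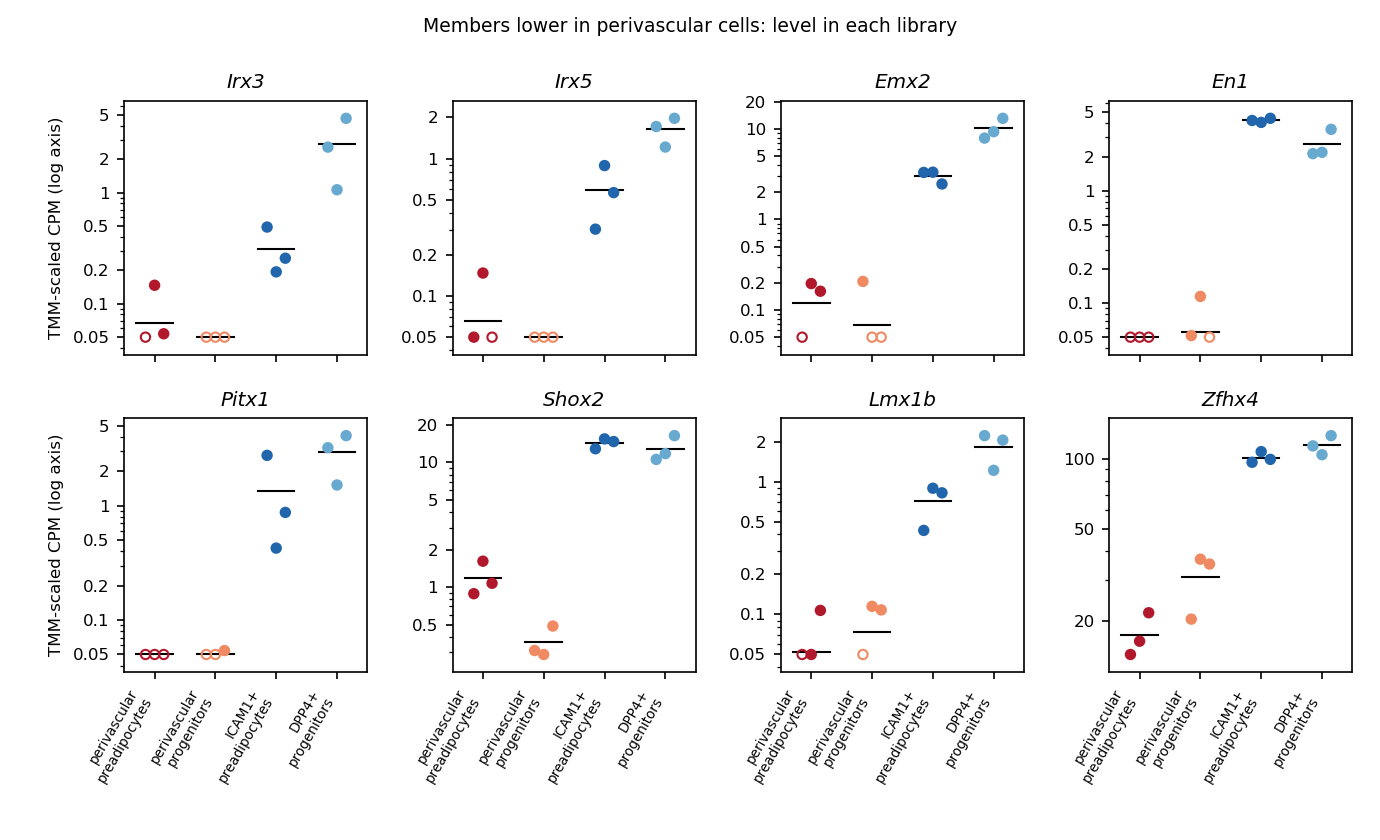
TMM-scaled CPM (log axis) of 8 homeobox genes lower in perivascular cells; each point is a library, 3 per population, the bar is the mean, and open circles at the bottom of the axis are libraries with 0 counts, drawn at 0.05 CPM. In the panels for Emx2, En1, Pitx1 and Shox2 every inguinal library lies above every perivascular library.

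Other genes lower at both stages were expressed well in both depots. Zfhx4, a large zinc finger homeodomain factor, had 20.4, 37.0 and 35.3 CPM in perivascular progenitors, against 113.7, 104.2 and 125.8 CPM in DPP4+ progenitors (log2 fold change -1.89 ± 0.221, adjusted p = 4.96e-05). In preadipocytes Zfhx4 had 14.4, 16.4 and 21.8 CPM in perivascular libraries, against 96.6, 107.4 and 99.5 CPM in ICAM1+ libraries (log2 fold change -2.53 ± 0.226, adjusted p = 6.50e-06). The groups were far apart at both stages. Tgif1, a repressor of TGF-beta and retinoid responses, had 31.9, 34.3 and 32.4 CPM in perivascular progenitors, against 75.6, 70.5 and 68.7 CPM in DPP4+ progenitors, with little spread within a group. Its log2 fold change was -1.12 ± 0.115 in progenitors (adjusted p = 1.62e-05) and -1.37 ± 0.115 in preadipocytes (adjusted p = 4.01e-06).

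Msx1, an NK-like gene of limb and face known for holding cells undifferentiated, had its largest depot difference in preadipocytes. Msx1 (chr5:37820485-37824583) had 4.52, 5.33 and 4.24 CPM in perivascular preadipocytes, against 38.8, 40.5 and 40.3 CPM in ICAM1+ preadipocytes, a log2 fold change of -3.08 ± 0.174 (adjusted p = 1.75e-07). In progenitors it had 2.01, 1.84 and 1.73 CPM in perivascular libraries, against 5.0, 5.92 and 4.51 CPM in DPP4+ libraries, a log2 fold change of -1.46 ± 0.181 (adjusted p = 7.68e-05). The ICAM1+ libraries stood above all others for this gene, and the ranges of perivascular preadipocytes and DPP4+ progenitors overlapped.

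Prrx1 had 69.4, 50.8 and 49.7 CPM in perivascular preadipocytes, against 204.3, 236.2 and 232.7 CPM in ICAM1+ preadipocytes, a log2 fold change of -1.99 ± 0.184 (adjusted p = 8.68e-06). In progenitors the difference was smaller, with 122.2, 172.6 and 179.3 CPM in perivascular libraries against 253.7, 231.7 and 261.4 CPM in DPP4+ libraries (log2 fold change -0.66 ± 0.178, adjusted p = 0.0166). The progenitor call did not hold without perivascular library 1 (adjusted p = 0.0573), DPP4+ library 1 (adjusted p = 0.0545) or DPP4+ library 3 (adjusted p = 0.0604), and with libraries scaled by their totals (adjusted p = 0.292).

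The rest of the genes lower at both stages were Meis3, Zfhx3 and Lhx6. Meis3, a TALE partner of Hox proteins, fell by 0.66 on the log2 scale in progenitors (adjusted p = 0.0200) and by 1.07 in preadipocytes (adjusted p = 0.000729), and its progenitor call did not hold without perivascular library 3 (adjusted p = 0.0866), DPP4+ library 1 (adjusted p = 0.0511) or DPP4+ library 3 (adjusted p = 0.0805), and with libraries scaled by their totals (adjusted p = 0.334). Zfhx3 fell by 0.77 in progenitors (adjusted p = 0.00342) and by 0.78 in preadipocytes (adjusted p = 0.00199), and its progenitor call did not hold with libraries scaled by their totals (adjusted p = 0.116). Lhx6, a LIM gene of jaw mesenchyme and interneurons, fell by 1.62 in progenitors (adjusted p = 0.0245) and by 1.83 in preadipocytes (adjusted p = 0.0111). With the replicate number as a block its progenitor value was -1.60 (adjusted p = 0.0510), and without DPP4+ library 2, which at 3.87 CPM was above 1.36 and 1.97 CPM in the others, it was -1.09 (adjusted p = 0.142). The Lhx6 progenitor call was also lost without perivascular library 2 (adjusted p = 0.0631) or 3 (adjusted p = 0.0862).

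Genes lower in perivascular cells at 1 stage alone passed the test there and not at the other stage, which by itself shows no difference between stages. In progenitors these were Irx3 and Alx4, a paired-like limb gene, whose value of -1.41 ± 0.398 (adjusted p = 0.0202) was no longer called without perivascular library 1 (adjusted p = 0.0566), perivascular library 3 (adjusted p = 0.0720) or DPP4+ library 3 (adjusted p = 0.0660). In preadipocytes they were Irx2, Pbx2, Satb1, Tshz3, Zeb1 and Zeb2. Pbx2, a TALE cofactor, fell by 1.04 on the log2 scale, the chromatin organiser Satb1 by 1.29, Tshz3 by 1.05, Zeb1 by 0.78 and Zeb2 by 1.02, with adjusted p from 0.00128 to 0.00256.

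Genes higher in perivascular than in DPP4+ progenitors were Lhx8, Meox1, Meox2, Tshz2, Meis1 and Meis2. Lhx8, a LIM gene of palate and forebrain that has been used as a marker of brown fat, had 4.13, 3.34 and 3.62 CPM in perivascular progenitors, against 0.786, 0.607 and 0.492 CPM in DPP4+ progenitors, a log2 fold change of 2.54 ± 0.269 (adjusted p = 2.22e-05). Meox1, a regulator of somite patterning, had 4.80, 4.32 and 5.52 CPM against 1.29, 1.29 and 2.38 CPM in the same groups (log2 fold change 1.57 ± 0.256, adjusted p = 0.000652). Meox2 had 64.9, 55.1 and 74.9 CPM in perivascular progenitors, against 25.9, 25.8 and 19.6 CPM in DPP4+ progenitors (log2 fold change 1.45 ± 0.265, adjusted p = 0.00148). No perivascular progenitor library was within the DPP4+ range for any of these 3 genes.

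Meis1, a TALE cofactor of Hox and Pbx proteins, had 82.9, 94.8 and 101.5 CPM in perivascular progenitors, against 44.8, 41.2 and 46.0 CPM in DPP4+ progenitors, a log2 fold change of 1.08 ± 0.147 (adjusted p = 0.000166). Meis2 had 36.2, 35.1 and 34.1 CPM, against 20.6, 20.7 and 14.7 CPM, in the same groups (log2 fold change 0.91 ± 0.161, adjusted p = 0.00112). Tshz2, a teashirt zinc finger gene, had 71.0, 58.7 and 51.0 CPM in perivascular progenitors, against 28.2, 24.1 and 29.5 CPM in DPP4+ progenitors (log2 fold change 1.14 ± 0.156, adjusted p = 0.000167). All 3 genes were highest in perivascular progenitors among the 4 populations. Meis1 is also expressed outside stroma, and 10 mesothelial markers summed to 33.3 to 78.2 CPM in perivascular preadipocytes, 135 to 249 CPM in perivascular progenitors, 30.5 to 45.9 CPM in ICAM1+ preadipocytes and 37.7 to 38.7 CPM in DPP4+ progenitors; their part in the result was not tested. Antisense genes overlap 67.5% of the exon length of Tshz2, and each of these averaged at most 0.738 CPM in any population.

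In preadipocytes, Prrx2, Isl1 and Dlx5 were higher in perivascular cells. Prrx2, the close relative of Prrx1, had 11.9, 13.4 and 13.1 CPM in perivascular preadipocytes, against 2.14, 2.28 and 1.39 CPM in ICAM1+ preadipocytes (log2 fold change 2.72 ± 0.921, adjusted p = 0.0296). The groups were wide apart, but the call did not hold without library 2 (adjusted p = 0.0595) or 3 of the perivascular preadipocytes (adjusted p = 0.0558), or ICAM1+ library 1 (adjusted p = 0.0725), 2 (adjusted p = 0.0731) or 3 (adjusted p = 0.0972). In progenitors Prrx2 had 39.6, 3.11 and 1.51 CPM in perivascular libraries and 2.64, 2.66 and 6.73 CPM in DPP4+ libraries, where library 1 of the perivascular progenitors stood far above the rest.

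Gsc, a paired-like gene of the embryonic organiser and of head and tendon mesenchyme, was high in the same library. Gsc had 4.08, 8.51 and 10.1 CPM in perivascular preadipocytes and 5.89, 0.921 and 0.379 CPM in perivascular progenitors. The sum of 6 cartilage and tendon markers was 49.7 CPM in perivascular progenitor library 1 and 23.8 and 25.2 CPM in libraries 2 and 3. It was 67 to 89.5 CPM in perivascular preadipocytes, 28.6 to 32.3 CPM in ICAM1+ preadipocytes and 18.6 to 31.3 CPM in DPP4+ progenitors. Sox9 made up 36.2 CPM of the sum in perivascular progenitor library 1, against 13.9 and 11.9 CPM in libraries 2 and 3. Scx and Chad were also highest in library 1, while Acan and Col2a1 were lowest there and Tnmd lay between the others. The part of cartilage and tendon cells in Gsc and Prrx2 was not tested. Without that library, perivascular preadipocytes were higher than perivascular progenitors for Prrx2 (log2 fold change 2.42, adjusted p = 0.000760) and for Gsc (3.48, adjusted p = 0.000172); with it the values were -0.20 (adjusted p = 0.876) and 1.65 (adjusted p = 0.0837).

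Isl1, a LIM gene of the second heart field and of motor neurons, had 0.983, 1.03 and 0.805 CPM in perivascular preadipocytes, against 0.245, 0.116 and 0.103 CPM in ICAM1+ preadipocytes (log2 fold change 2.61 ± 0.551, adjusted p = 0.00239), where 9 ICAM1+ counts give a ratio of 6.45 (3.17 to 14.8, 95% counting interval). Dlx5, a gene of craniofacial and bone development, had 1.13, 0.831 and 0.644 CPM, against 0.245, 0.0387 and 0.257 CPM, in the same groups (log2 fold change 2.33 ± 0.731, adjusted p = 0.0210). Both had means under 1 CPM in these 2 groups. The Dlx5 call did not hold without perivascular preadipocyte library 1 (adjusted p = 0.0574) or ICAM1+ library 2 (adjusted p = 0.0906). Cardiomyocyte markers, of which 5 of 6 had a row, summed to 15.9 to 110 CPM in perivascular preadipocytes and 6.07 to 9.52 CPM in ICAM1+ preadipocytes, and their part in the Isl1 value was not tested.

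No depot difference passed the test at either stage for Gsc, Hhex, Lhx9, Pbx3, Six4, Six5 and Tshz1, though each of these but Lhx9 was called higher in perivascular cells under some alternative. In preadipocytes Gsc was called by limma-voom (log2 fold change 1.18, adjusted p = 0.000467), with the 2 groups alone (adjusted p = 0.0458), without perivascular progenitor library 1 (adjusted p = 0.0309) and without all 3 that stood apart (adjusted p = 0.000997). Pbx3 was called there by limma-voom (0.67, adjusted p = 0.00430), without perivascular progenitor library 1 (adjusted p = 0.0409), without the 3 libraries (adjusted p = 0.0130) and with library totals (adjusted p = 0.0243), and Hhex by limma-voom (0.88, adjusted p = 0.0130). In progenitors Gsc was called by DESeq2 (adjusted p = 0.0381) and without perivascular library 3 (adjusted p = 0.0232), and library totals as the scale called Gsc, Pbx3, Six4, Six5 and Tshz1 (adjusted p of 0.0126 to 0.0476). Tshz1, for example, averaged 14.9 ± 1.29 CPM in perivascular preadipocytes, 17.9 ± 3.19 CPM in perivascular progenitors, 15.2 ± 1.61 CPM in ICAM1+ preadipocytes and 15.6 ± 0.892 CPM in DPP4+ progenitors (SD, n = 3 each). Its log2 fold change between depots was 0.20 ± 0.170 in progenitors and -0.04 ± 0.170 in preadipocytes (SE).

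**Figure D3:**
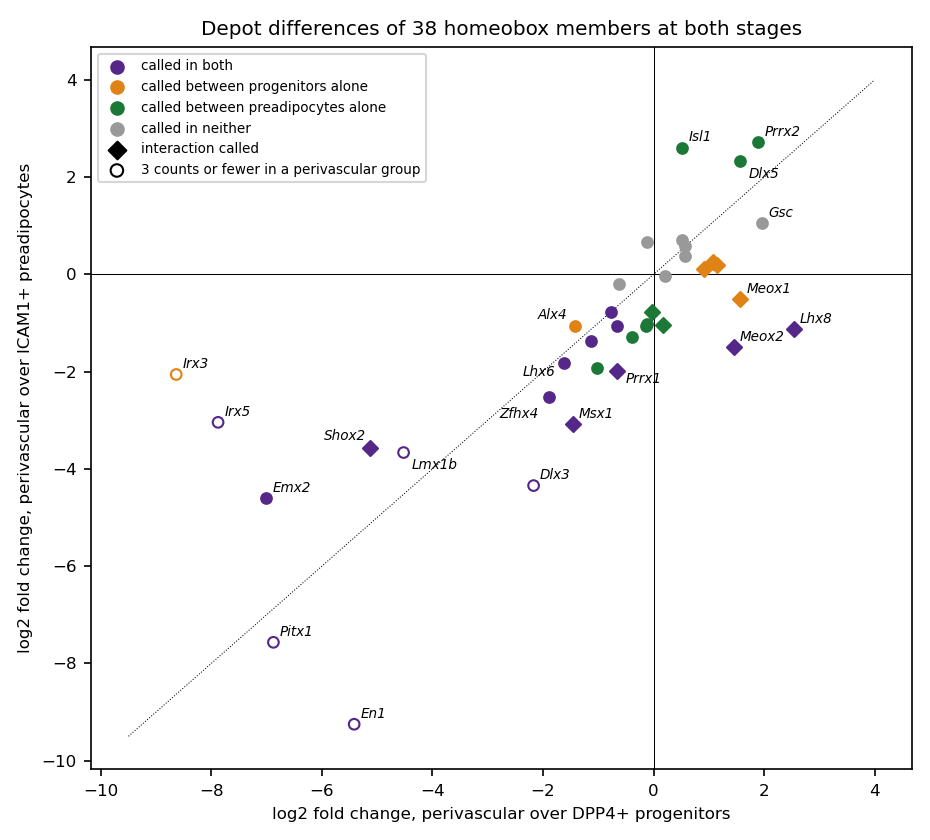
Log2 fold change between depots of the 38 tested homeobox genes, in progenitors (horizontal axis, perivascular over DPP4+) and in preadipocytes (vertical axis, perivascular over ICAM1+); diamonds are genes whose interaction of depot and stage was called, open symbols have 3 counts or fewer in a perivascular group, so that their fitted values depend on the prior count, and the dotted line marks equal change. Lhx8 and Meox2, called at both stages, lie at positive values in progenitors and negative values in preadipocytes, and the 14 genes lower at both stages fill the lower left. Meox1, called in progenitors alone, has the same signs as Lhx8 and Meox2.

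The promoters of 3 genes with large depot or stage differences are printed to show the sequence next to the values, for Shox2 and Msx1, lower in perivascular cells at both stages, and Meox2, whose depot difference had opposite signs at the 2 stages. Each run is the 250 bases before the RefSeq start, on the gene's strand (GRCm38.p6), with capitals at CpG dinucleotides. Shox2 lies at chr3:66981772-66982021 (minus strand), Msx1 at chr5:37824586-37824835 (minus strand) and Meox2 at chr12:37108290-37108539 (plus strand).
Shox2: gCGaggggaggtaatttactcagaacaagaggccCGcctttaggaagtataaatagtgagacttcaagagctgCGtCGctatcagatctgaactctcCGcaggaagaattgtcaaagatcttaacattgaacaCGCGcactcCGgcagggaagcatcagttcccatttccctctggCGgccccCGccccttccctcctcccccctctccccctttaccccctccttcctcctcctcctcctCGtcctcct
Msx1: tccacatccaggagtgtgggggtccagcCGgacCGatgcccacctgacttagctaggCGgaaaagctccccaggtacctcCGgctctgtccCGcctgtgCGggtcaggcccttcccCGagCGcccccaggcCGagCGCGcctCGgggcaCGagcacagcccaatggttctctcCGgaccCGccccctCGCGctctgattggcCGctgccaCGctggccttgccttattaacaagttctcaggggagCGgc
Meox2: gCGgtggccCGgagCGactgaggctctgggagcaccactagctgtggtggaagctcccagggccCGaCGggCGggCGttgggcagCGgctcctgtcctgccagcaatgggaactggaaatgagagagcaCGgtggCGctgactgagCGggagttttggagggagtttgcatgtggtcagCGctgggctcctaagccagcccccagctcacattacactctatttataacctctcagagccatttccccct
The windows hold 11, 20 and 12 CpGs. On either strand each holds 1 TAAT, the core letters that many homeodomains bind, and 1 GGGCGG, and those of Shox2 and Meox2 hold 1 TATAAA each.

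Of the 45 genes, 34 matched a RefSeq promoter, with 49 promoters among 32851 in all. The median GC share of these promoters was 59.6%, beside 52.4% for all promoters, and the median number of CpGs was 15 beside 6. The share holding TAAT on either strand was 46.9% beside 54.9% of all promoters, TAATTA, which contains TAAT, 4.08% beside 4.84%, and TGACAG, the letters bound by Meis proteins, 10.2% beside 15.9%. GGGCGG was in 55.1% beside 32.7%, and TATAAA in 8.16% beside 12.4%. These counts describe letters in the window and no site.

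The comparison of stages asked how the genes differ between preadipocytes and progenitors within a depot. In perivascular fat 12 of 38 genes differed (31.6%), 2 higher and 10 lower in preadipocytes, beside 32.9% of all genes, 16.8% higher and 16.1% lower, and library totals gave 3 higher and 7 lower. In inguinal fat 11 of 38 differed (28.9%), 6 higher and 5 lower in ICAM1+ preadipocytes, beside 17.9% of all genes, 9.34% higher and 8.61% lower. With library totals the inguinal split was 12 higher and 5 lower, with En1, Meis2, Satb1, Tshz2, Tshz3 and Zeb2 added as higher. The perivascular count was 21 without the 3 libraries that stood apart, and 8 without perivascular progenitor library 3 or perivascular preadipocyte library 2; the inguinal count was 7 without ICAM1+ library 2. All preadipocyte libraries lay above the progenitor ones for 3 genes and below them for 11 in perivascular fat, beside 20.1% and 20.7% of all genes, and for 12 and 13 in inguinal fat, beside 22.9% and 21.0%. Genes called in the same direction in both depots were Msx1 (higher) and Dlx3 and Dlx5 (lower). Dlx3 and Dlx5 are 2 of the 10 genes lower in perivascular fat and of the 5 lower in inguinal fat. Over all genes, 25.6% and 47.8% of the lower genes were shared. Msx1 is 1 of the 2 genes higher in perivascular fat and of the 6 higher in inguinal fat, beside 14.7% and 26.4% over all genes. Whether these small counts differ from the shares over all genes was not tested.

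In perivascular fat, Shox2 and Msx1 were higher in preadipocytes. Shox2 had 0.885, 1.61 and 1.07 CPM in perivascular preadipocytes, against 0.310, 0.288 and 0.487 CPM in perivascular progenitors (log2 fold change 1.70 ± 0.341, adjusted p = 0.00312). Msx1 had a log2 fold change of 1.33 ± 0.179 (adjusted p = 0.000391), from 4.70 ± 0.566 CPM in perivascular preadipocytes and 1.86 ± 0.142 CPM in perivascular progenitors (SD, n = 3 each). Neither gene overlapped between the groups.

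The genes lower in perivascular preadipocytes than in perivascular progenitors were Dlx3, Dlx5, Meis1, Meis2, Meis3, Prrx1, Tgif1, Tshz2, Zeb1 and Zfhx4. Prrx1 fell by 1.48 ± 0.181 on the log2 scale (adjusted p = 0.000228), and Zeb1, a repressor of epithelial genes, had 53.9, 47.1 and 39.9 CPM in perivascular preadipocytes, against 76.9, 109.8 and 109.3 CPM in perivascular progenitors (log2 fold change -1.07 ± 0.164, adjusted p = 0.000774). Meis1 had 54.5, 42.0 and 40.2 CPM in perivascular preadipocytes, against the progenitor values of 82.9 to 101.5 CPM (log2 fold change -1.03 ± 0.147, adjusted p = 0.000526). Meis3 had 26.6, 17.0 and 17.2 CPM in perivascular preadipocytes, against 44.3, 39.3 and 32 CPM in perivascular progenitors (log2 fold change -0.93 ± 0.188, adjusted p = 0.00331). Each of these genes had its 3 preadipocyte libraries below its 3 progenitor libraries. The summed stromal markers were likewise lower and the adipocyte markers higher in perivascular preadipocytes, with the ranges given above, and their part in these results was not tested.

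Dlx5 had 1.13, 0.831 and 0.644 CPM in perivascular preadipocytes, against 3.15, 3.45 and 2.38 CPM in perivascular progenitors (log2 fold change -1.77 ± 0.568, adjusted p = 0.0309). The call did not hold without perivascular progenitor library 2 (adjusted p = 0.0779) or 3 (adjusted p = 0.0515), or library 2 (adjusted p = 0.0928) or 3 of the perivascular preadipocytes (adjusted p = 0.0998). Dlx3 had 2 counts in perivascular preadipocytes and 52 in perivascular progenitors, a ratio of 28.0 for progenitors over preadipocytes (7.37 to 237, 95% counting interval, adjusted p = 0.000474). Zfhx4 fell by 0.82, Meis2 and Tshz2 by 0.53 each and Tgif1 by 0.34 on the log2 scale. The Zfhx4 libraries overlapped between the groups, and its call did not hold without perivascular progenitor library 3 (adjusted p = 0.0560) or perivascular preadipocyte library 2 (adjusted p = 0.0508), or with the 2 groups alone (adjusted p = 0.0912). The Tgif1 value was -0.34 (adjusted p = 0.0669) with the replicate number as a block, and the Meis2 call did not hold without perivascular progenitor library 3 (adjusted p = 0.0541) or perivascular preadipocyte library 2 (adjusted p = 0.0885). The Tgif1 call did not hold when any 1 of 9 libraries was left out, and with libraries scaled by their totals none of Meis2, Tshz2 and Tgif1 was called (adjusted p of 0.0966 to 0.307).

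In inguinal fat, Lhx8, Msx1, Meox1, Meox2, Gsc and Pbx2 were higher in ICAM1+ preadipocytes. Lhx8 had 8.52, 6.31 and 7.71 CPM in ICAM1+ preadipocytes, against 0.786, 0.607 and 0.492 CPM in DPP4+ progenitors (log2 fold change 3.55 ± 0.267, adjusted p = 2.02e-06). Meox1 had 10.1, 11.7 and 10.1 CPM, against 1.29, 1.29 and 2.38 CPM, in the same groups (log2 fold change 2.69 ± 0.256, adjusted p = 1.39e-05). Meox2 had 144.4, 151.0 and 164.0 CPM in ICAM1+ preadipocytes, against 25.9, 25.8 and 19.6 CPM in DPP4+ progenitors (log2 fold change 2.69 ± 0.275, adjusted p = 2.51e-05). For these 3 genes and for Msx1, whose log2 fold change was 2.95 ± 0.174 (adjusted p = 2.95e-07), all ICAM1+ libraries were well above the DPP4+ ones.

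Gsc had 3.06, 4.65 and 3.19 CPM in ICAM1+ preadipocytes, against 0.429, 0.835 and 0.574 CPM in DPP4+ progenitors (log2 fold change 2.57 ± 0.818, adjusted p = 0.0468). Its call was lost with the replicate number as a block (2.58, adjusted p = 0.0733) and without any of the 6 inguinal libraries or perivascular preadipocyte library 2 (adjusted p of 0.0622 to 0.149), although the groups did not overlap. Pbx2 rose by 0.82 on the log2 scale (adjusted p = 0.0196), a call that did not hold without library 1 of the DPP4+ cells (adjusted p = 0.0877) or without library 1 (adjusted p = 0.0809) or 2 of the ICAM1+ cells (adjusted p = 0.0647).

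Irx3, Isl1, Dlx5, Dlx3 and Emx2 were lower in ICAM1+ preadipocytes than in DPP4+ progenitors. Irx3 had a log2 fold change of -3.16 ± 0.684 (adjusted p = 0.00838), Isl1 of -2.70 ± 0.563 (adjusted p = 0.00467, from 9 ICAM1+ counts) and Dlx3 of -2.37 ± 0.386 (adjusted p = 0.000837). Dlx3 had 1.29, 0.465 and 0.771 CPM in ICAM1+ preadipocytes, against 4.71, 4.40 and 3.69 CPM in DPP4+ progenitors. Emx2 fell by 1.74 ± 0.460 (adjusted p = 0.0194), a call that did not hold without library 3 of the DPP4+ cells (adjusted p = 0.0798) or without ICAM1+ library 1 (adjusted p = 0.0639), 2 (adjusted p = 0.0661) or 3 (adjusted p = 0.0891). Dlx5 had 0.245, 0.0387 and 0.257 CPM in ICAM1+ preadipocytes and 0.929, 1.90 and 0.164 CPM in DPP4+ progenitors, which overlap; its log2 fold change of -2.53 (adjusted p = 0.0324) was -2.40 (adjusted p = 0.0581) with the replicate block and -1.70 (adjusted p = 0.188) without DPP4+ library 2. The call also failed without library 1 of the DPP4+ cells (adjusted p = 0.0693) or without ICAM1+ library 1 (adjusted p = 0.0647), 2 (adjusted p = 0.134) or 3 (adjusted p = 0.0590). Of the epithelial markers, Krtdap differed in the same direction as Dlx3, Emx2 and Irx3, with a mean of 10.2 CPM in ICAM1+ preadipocytes and 370.4 CPM in DPP4+ progenitors. The sum of the other 7 markers differed in the opposite direction, as given above, and the defining marker Krt5 averaged 2.33 CPM in ICAM1+ preadipocytes and 0 in DPP4+ progenitors.

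Whether the depot difference itself changed with stage was tested as the interaction of depot and stage, the preadipocyte-over-progenitor log2 fold change in perivascular fat minus that in inguinal fat. It was called for 11 of 38 genes (28.9%), 1 positive and 10 negative, beside 15.0% of all genes, 6.37% positive and 8.66% negative. The count was 19 without the 3 libraries that stood apart, 17 without perivascular progenitor library 1, 6 without perivascular progenitor library 2, perivascular preadipocyte library 2 or ICAM1+ library 2, and 7 without ICAM1+ library 1. The split was 4 positive and 12 negative by DESeq2, 7 and 15 by limma-voom, and 5 and 14 without the 3 libraries. Icam1 averaged 497.0 CPM in ICAM1+ preadipocytes and 61.7 CPM in DPP4+ progenitors, but 39.5 CPM in perivascular preadipocytes and 96.0 CPM in perivascular progenitors. Dpp4 averaged 32.0, 1510, 5.08 and 89.4 CPM in the same order, and Pparg was higher in preadipocytes in both depots. The stages are thus not known to match between depots, and an interaction cannot be told apart from a difference between sort gates.

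Of the 11 called interactions, that of Lhx8 was the largest, at -3.67 ± 0.348 (adjusted p = 4.40e-05). It had 3.79, 3.47 and 3.00 CPM in perivascular preadipocytes and 4.13, 3.34 and 3.62 CPM in perivascular progenitors, which overlap (log2 fold change -0.11 ± 0.223), while its inguinal levels differed between stages as given above. Meox2 followed at -2.95 ± 0.372 (adjusted p = 0.000337), with 83.0, 42.6 and 36.9 CPM in perivascular preadipocytes and 64.9, 55.1 and 74.9 CPM in perivascular progenitors. Its perivascular stage difference was -0.26 (adjusted p = 0.461), and -0.74 (adjusted p = 0.00466) without perivascular preadipocyte library 1, the highest of the 3. In preadipocytes Meox2 was lower in perivascular than in ICAM1+ cells (log2 fold change -1.50 ± 0.262, adjusted p = 0.000694) and so was Lhx8 (-1.13 ± 0.221, adjusted p = 0.00144).

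Meox1 had an interaction of -2.08 ± 0.341 (adjusted p = 0.00198), with 7.52, 6.80 and 8.10 CPM in perivascular preadipocytes, between its perivascular progenitor level and its ICAM1+ level. Msx1 had an interaction of -1.62 ± 0.244 (adjusted p = 0.00116), with preadipocytes higher than progenitors in both depots and the larger difference in inguinal fat. Prrx1 had one of -1.33 ± 0.251 (adjusted p = 0.00451), with a stage difference of -1.48 in perivascular fat and -0.15 in inguinal fat. The single positive interaction called was that of Shox2, 1.55 ± 0.418 (adjusted p = 0.0273), which was lost when leaving out perivascular progenitor library 2, perivascular preadipocyte library 2, DPP4+ library 3 or any ICAM1+ library (adjusted p of 0.0539 to 0.0829). Irx3 (adjusted p = 0.0520), Irx5 (adjusted p = 0.0767), Isl1 (2.09, adjusted p = 0.0669) and Emx2 (2.40, adjusted p = 0.190) had positive fitted interactions that did not pass. Negative ones that did not pass included Tshz3 (-0.91, adjusted p = 0.0548), Zeb2 (-0.90, adjusted p = 0.0667) and Dlx3 (adjusted p = 0.0820). En1 (adjusted p = 0.0835), Satb1 (-0.89, adjusted p = 0.103) and Zfhx4 (-0.64, adjusted p = 0.172) were also negative. DESeq2 called Irx3 (adjusted p = 0.00464), Irx5 (adjusted p = 0.0448) and Isl1 (adjusted p = 0.0497), and limma-voom called these 3 with Emx2 (adjusted p = 0.00254), Hhex (adjusted p = 0.0396) and Prrx2 (adjusted p = 0.00241). Irx3 and Irx5 had no count in perivascular progenitors, so that the size of their fitted interaction depends on the prior count.

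**Figure D4:**
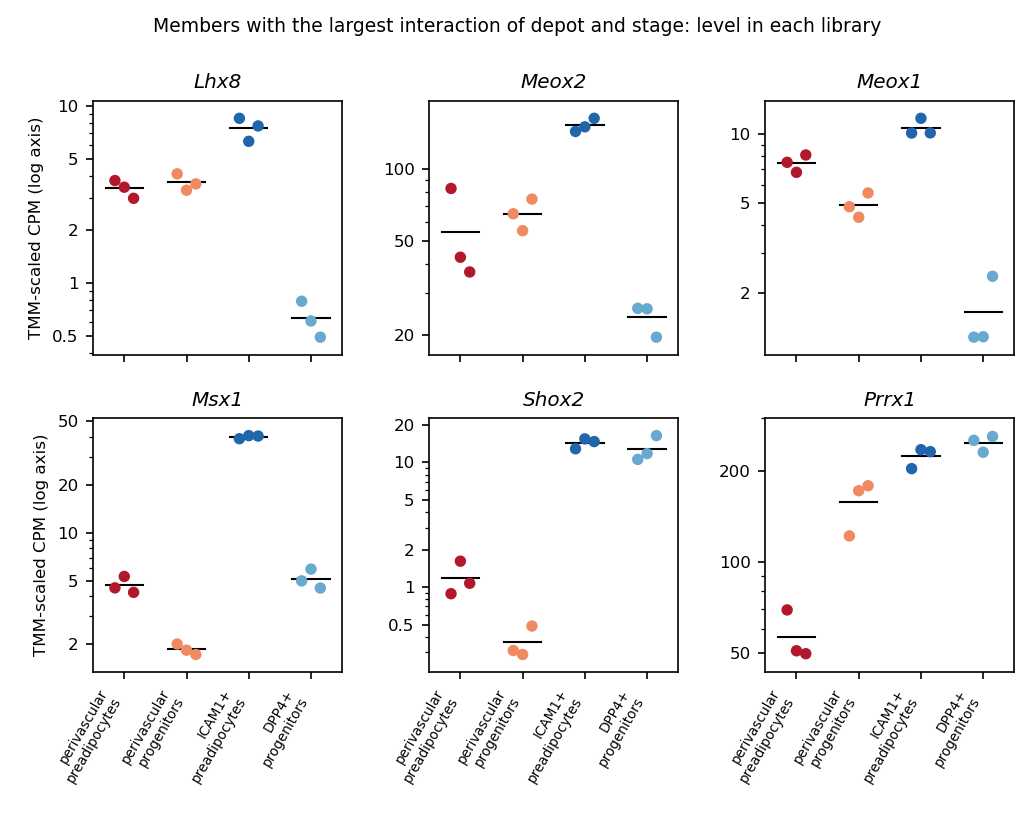
TMM-scaled CPM (log axis) in each library, 3 per population, of the 6 homeobox genes with the largest called interaction of depot and stage; bars are means. Lhx8, Meox1 and Meox2 are lowest in DPP4+ progenitors and highest in ICAM1+ preadipocytes, with both perivascular populations in between.

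The other 5 called interactions were smaller. Pbx2 had -1.21 (adjusted p = 0.0207), Tshz2 -0.94 (adjusted p = 0.0132), Meis1 -0.82 (adjusted p = 0.0199), Meis2 -0.80 (adjusted p = 0.0321) and Zeb1 -0.75 (adjusted p = 0.0446). Zeb1 was no longer called with the replicate block (-0.75, adjusted p = 0.0823) or without any 1 of 10 libraries (adjusted p of 0.0776 to 0.116). Meis1, Meis2 and Pbx2 were each lost when any 1 of 5 or 6 libraries was left out, with adjusted p of 0.0508 to 0.0827, and Tshz2 was called in every alternative run.

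The counts by class are small, and whether they differ from the shares over all genes was not tested. Those shares were 24.9% between depots in progenitors and 44.9% in preadipocytes, 17.9% between inguinal stages and 15.0% for the interaction. By class, the MEOX genes, with 2 of 2 called, differed in progenitors, in the inguinal stage comparison and in the interaction. In preadipocytes, 1 of the 2 differed between depots. Of the 6 tested NK-like genes, 4 differed between depots in progenitors and 5 in preadipocytes, and 4 differed between inguinal stages. Of the 6 paired-like genes, 4 differed between depots at each stage. Of the 9 TALE genes, 6 differed in progenitors, 2 higher (Meis1 and Meis2) and 4 lower, and 5 in preadipocytes, all lower. Of the 7 zinc finger genes, 3 differed in progenitors and 5 in preadipocytes, and none differed between inguinal stages (2 at an unadjusted p under 0.05, Tshz3 called by DESeq2 at an adjusted p of 0.0338, and Tshz2, Tshz3, Zeb1 and Zeb2 called by limma-voom). Six4 and Six5, of the sine oculis class, passed the test in none of the 5 comparisons, and neither had an unadjusted p under 0.05 in any. Under the alternatives, both were called higher in perivascular progenitors with library totals, as given above. Six4 was called higher in perivascular than in ICAM1+ preadipocytes by limma-voom (log2 fold change 0.84, adjusted p = 0.0101) and without ICAM1+ library 1 (adjusted p = 0.0146), lower in ICAM1+ preadipocytes than in DPP4+ progenitors without that library (-1.12, adjusted p = 0.0374), and lower in perivascular preadipocytes than in perivascular progenitors without the 3 libraries (-0.97, adjusted p = 0.0360).

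A list of 123 further homeobox genes, with 86 in the table and 37 tested, was read beside them. In progenitors 9 of the 37 differed between depots (24.3%), 5 higher and 4 lower in perivascular cells, and in preadipocytes 20 (54.1%), 5 higher and 15 lower. The share over all genes tested was 24.9% in progenitors, 13.0% higher and 11.8% lower. In preadipocytes it was 44.9%, 23.5% higher and 21.4% lower. Among the genes called in progenitors, the log2 fold change was -3.52 for Dbx2, 2.76 for Hlx, a gene of visceral mesenchyme, and 2.23 for Hopx, a small homeodomain protein that does not bind DNA. Hlx averaged 7.14 CPM in perivascular progenitors and 1.05 CPM in DPP4+ progenitors. Among the genes called in preadipocytes, Dbx2 had -3.55 and Lmx1a, a relative of Lmx1b, had -2.58, with 1.29 CPM in perivascular and 7.78 CPM in ICAM1+ preadipocytes. Between stages, 8 of the 37 differed in perivascular fat (21.6%), all lower in preadipocytes, and 6 in inguinal fat (16.2%). Over all genes the shares were 32.9% and 17.9%. The perivascular count was 5 with the replicate number as a block.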

How the data were processed

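RNA of sorted cells was sequenced from 12 libraries made with a SMART-Seq kit after poly(A) selection, per the labels' protocols. The submitters' processing notes name STAR 2.5.2a, DESeq2 1.26.0 and the mm10 build; the counting tool, its annotation and strand use were not given in the sources used here. A deposited table holds raw counts per gene, 15614628 to 25674461 per library, and was used unchanged; 20387 of 31099 genes have a symbol, and 31074 identifiers are in GENCODE M21, the source of coordinates and exon overlaps. The authors' normalised and regularised tables were not used.

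Genes were filtered with filterByExpr (minimum count 10), which left 18855, scaled by TMM and fitted over all 12 libraries with edgeR 4.0.16 (glmQLFit, glmQLFTest; R 4.3.3, limma 3.58.1). Tests are two-sided, with Benjamini-Hochberg adjustment over all tested genes and calls at an adjusted p under 0.05. Fold changes are log2, with SE as their size over the root of F. Floors of 3 counts and 95% intervals cover counting error only. Alternatives, including DESeq2 1.42.0 and limma-voom, are in the closing section. The fit was also run on simulated data with changes placed in the perivascular progenitor libraries alone, at genes above a minimum count. Recovery of changes was thus not tried for genes with few counts or for comparisons without these libraries. The outcome of that run is not reported here.

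Per the labels, equal replicate numbers share pools of mice, so the numbers pair the samples. Of 18 pairs with the same number, 5 had deviations correlated over 0.1 (r from -0.21 to 0.15, median 0.01), and of 36 with other numbers, 8 (from -0.20 to 0.27, median 0.01).

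Genes, marker lists and alternatives were chosen with earlier results of these data known. Values in every library were set to be given for called genes averaging 1 CPM or more in their higher group: up to 7 per direction and depot comparison, up to 5 per direction and stage comparison, and up to 6 interactions. Library values of the other genes were chosen after their values were seen. Of the further homeobox genes, up to 4 called genes with the largest change per depot comparison were to be named, and 1 of them is not reported here.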

Additional observations from a re-analysis of the deposited data

Results flagged for a closer look

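The depot difference differed between stages by a direct test, the interaction of depot and stage, for 11 homeobox genes of the main list and 4 of the further homeobox genes. These are 28.9% of the 38 and 10.8% of the 37 tested, beside 15.0% of all genes. The values are perivascular minus inguinal differences between preadipocytes and progenitors on the log2 scale, from edgeR's quasi-likelihood test. In the main list they were -3.67 for Lhx8, -2.95 for Meox2, -2.08 for Meox1, -1.62 for Msx1, 1.55 for Shox2, -1.33 for Prrx1, -1.21 for Pbx2, -0.94 for Tshz2, -0.82 for Meis1, -0.80 for Meis2 and -0.75 for Zeb1.

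Among the further genes, Hopx had -3.0 (adjusted p = 0.00259), with means of 8.84 CPM in perivascular preadipocytes, 6.01 CPM in perivascular progenitors, 15.1 CPM in ICAM1+ preadipocytes and 1.28 CPM in DPP4+ progenitors. Pknox2, a TALE gene, had -2.73 (adjusted p = 0.00373), with 16, 32.5, 24.8 and 7.60 CPM in the same order of populations. Tgif2 had -2.13 (adjusted p = 0.00833), and Pbx4 had -1.46 (adjusted p = 0.0224). In all 4 of these genes the inguinal mean was higher in ICAM1+ preadipocytes than in DPP4+ progenitors, as it was for Lhx8, Meox1, Meox2 and Msx1.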

How the results depend on the processing

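Of the calls among the 38 genes, 17 of 22 (progenitors) and 22 of 25 (preadipocytes) between depots, 7 of 12 (perivascular) and 7 of 11 (inguinal) between stages, and 6 of 11 interactions held under every alternative run, and no called gene changed sign. Of the genes not called, 9 of 16, 8 of 13, 11 of 26, 15 of 27 and 11 of 27 in the same order were called under at least 1. Leaving out single libraries gave 19 to 22 and 23 to 27 homeobox genes called between depots, 8 to 17 and 7 to 13 between stages and 6 to 17 interactions; for the further homeobox genes 9 to 13, 17 to 22, 2 to 10, 5 to 8 and 3 to 9; and for all genes 3604 to 5761, 6615 to 9574, 3916 to 8000, 2276 to 4292 and 1666 to 5231.

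Between perivascular stages, 12 homeobox genes, 8 further genes and 6198 of all genes became 22, 16 and 10914 with limma-voom and library weights, 8, 2 and 2825 with the 2 groups alone, and 21, 13 and 9893 without the 3 libraries that stood apart; the further genes were 2 with library totals as the scale, 5 with no filter and 5 with the replicate block. Between inguinal stages, 11, 6 and 3384 became 17, 10 and 5276 with library totals; 11 and 3384 became 21 and 6052 with limma-voom and 17 and 5757 with the 2 groups alone, and the 6 further genes became 3 under a minimum count of 50. For the interaction, 11, 4 and 2834 became 22, 12 and 8384 with limma-voom and 19, 13 and 7783 without the 3 libraries, and the further genes were 6 with library totals. Between depots, 4687 genes in progenitors became 7548 with library totals, and 20 further genes in preadipocytes became 11 under a minimum count of 50. The cause of these changes was not tested.

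When libraries were scaled by their totals, the median change over all genes (log2) was 0.48 and 0.27 between depots, 0.12 and 0.40 between stages and -0.21 for the interaction. The share of calls that were higher became 83.7%, 66.5%, 66.3%, 82.6% and 23.3%, beside 52.5%, 52.2%, 51.1%, 52.0% and 42.4% with TMM. Beyond the calls named in the report, the replicate block changed no other call among the 38 genes. Genes with under 10 counts in a group, such as Irx3 or Emx2 in perivascular cells, have wide counting intervals, or bounds alone where the group is at 0, beside their fitted fold changes.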
